A study of Homo sapiens with 6 samples.

Results

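Splicing and junction read levels were examined for 10 genes that activate and oxidise fatty acids, ACSL1, ACSL3, ACSL4, CPT1A, ACADVL, ACADM, HADHA, HADHB, ACAA1 and ACAA2, in NCI-H1975 cells, a human lung adenocarcinoma line. The genes were taken by name, and their listed splicing events were selected on depth alone: the inclusion and skipping reads of an event, averaged across all 6 libraries, had to reach 10. The genes themselves were chosen with earlier results of these data known, so the counts and shares of their events are a description. This gave 103 of 66394 tested events, out of 107 events listed for these genes. The read minimum left out 4 events with means between 2.33 and 5 reads. The events of lowest mean that passed it were an ACAA2 donor event at 10.3 reads, an ACADVL acceptor event at 12.7 reads and an ACSL4 acceptor event at 14 reads.

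RNA was sequenced from 3 libraries of cells given the empty PCDNA3.1 plasmid (control) and 3 libraries of cells given PCDNA3.1 carrying SAM68 (SAM68), so both groups had been transfected and differed in the insert. The plasmids were delivered by lipofection and acted for 48 h. SAM68 is the RNA-binding splicing regulator encoded by KHDRBS1. The study's methods call the libraries of a group biological replicates. A p-value of the main tests sets a difference against the spread between these libraries, moderated by the spread of the other events or genes.

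Long-chain fatty acids are first joined to coenzyme A by acyl-CoA synthetases, among them ACSL1, ACSL3 and ACSL4. CPT1A, on the outer mitochondrial membrane, makes the acyl-carnitine that crosses into the mitochondrion and is the gate inhibited by malonyl-CoA. Inside, an acyl-CoA dehydrogenase (ACADVL for very long chains, ACADM for medium chains), the trifunctional protein of HADHA and HADHB, and a thiolase such as ACAA2 shorten the chain by turns, while ACAA1 is the thiolase of the peroxisome.

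The files give the libraries of the groups as unnamed lists, of which the first was taken as control and the second as SAM68, so the sign of every difference rests on that order. The targeted gene was checked before the others. Junction reads of KHDRBS1, as reads per 1000000 junction reads of the library (rpm), were 311, 328 and 316 in control and 1230, 1260 and 1276 in SAM68, a log2 fold change of 1.98 ± 0.0473 (SE, limma, adjusted p = 1.00e-21). Reads from the plasmid and from the cells' own gene cannot be told apart. The cassette exon table held 16951876 to 19737729 junction reads per library, and the events of the 10 genes held 25577 to 30536. Of the cell markers looked up, the epithelial keratins KRT8 (229 to 520 rpm) and KRT18 (471 to 530 rpm) were high, the lung epithelial gene NAPSA was between 0 and 0.918 rpm, and EPCAM, CDH1, NKX2-1, SFTPC and the leukocyte gene PTPRC had no listed event, which for a splicing table says nothing of their level.

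An event is a choice between a form with a stretch of RNA and a form without it. Its inclusion level (PSI) is the share of the including form after each form's reads are divided by its effective length, and a difference is SAM68 minus control in points of PSI. The 103 events were 66 cassette exons, 9 alternative acceptors (3' splice sites), 2 alternative donors (5' splice sites), 14 pairs listed as mutually exclusive exons and 12 retained introns. Calls needed both an adjusted p below 0.05 and a difference of 10 points or more.

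None of the 103 events was called, against 17 of 66394 events (0.0256%) in the whole series. An unadjusted p under 0.05 was reached by 13 of the 103 (12.6%), 5 higher and 8 lower in SAM68, against 8.42% of all events. The PSI values of the groups did not overlap in 11 of the 103 (10.7%), against 6.10% of all events. The median absolute difference was 0.669 points for these events and 1.24 points for all events. The minor form was under 5% in 71 of them and at least 10% in 26. Adjusted p-values of the 10 genes were 0.0727 or higher in the quasi-binomial test. The same count of calls, 0, came from limma on the logit of PSI and from the test with unmoderated dispersion. With 1 dispersion shared by all events of a type, an alternative chosen after seeing the data, 3 of the 103 events were called, 2 in ACSL4 and 1 in ACADVL, while the calls over all events rose from 17 to 125.

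**Figure D1:**
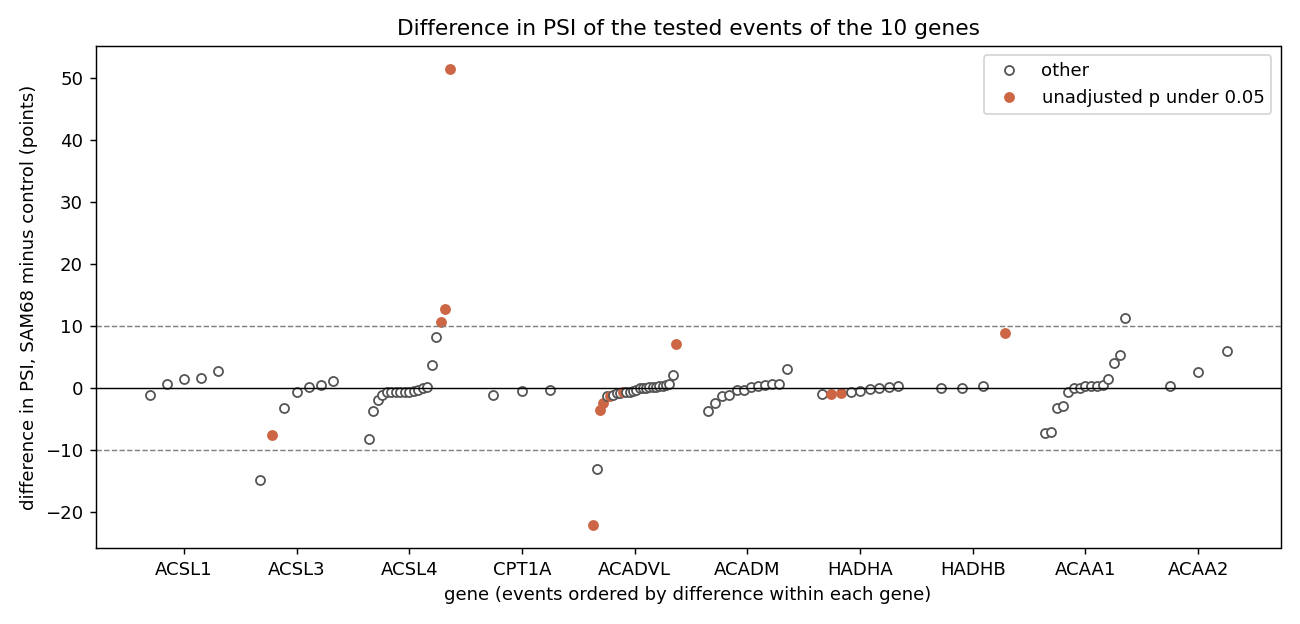
Difference in PSI (SAM68 minus control, points) of the 103 tested events, one circle an event, ordered by difference within each gene; filled circles have an unadjusted p under 0.05 and dashed lines mark 10 points. The 7 events beyond the lines belong to ACSL3, ACSL4, ACADVL and ACAA1, and the event at 51.5 points rests on a mean of 14 reads.

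Sequences are given here for ACADVL exon 3, which lies in the event of lowest adjusted p, and for pairs of nearby acceptors that split an exon into separately listed events. The first set is ACADVL exon 3 with its neighbours, in hg38 on the plus strand at chr17:7220434-7220606. Exon bases are in capitals. The run holds the end of intron 2, the whole of exon 3 (66 nt, coding, a multiple of 3, hence 22 codons), the whole of intron 3 (74 nt) and the start of exon 4.

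ACADVL exon 3 and intron 3: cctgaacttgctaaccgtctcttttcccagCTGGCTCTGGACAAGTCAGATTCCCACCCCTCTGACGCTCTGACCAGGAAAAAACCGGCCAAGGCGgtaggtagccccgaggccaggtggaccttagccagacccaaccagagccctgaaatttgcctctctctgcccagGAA

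ACADVL exon 2 donor (chr17:7220195-7220203): CAGgtaagt
ACADVL exon 3 donor (chr17:7220527-7220535): GCGgtaggt

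The exon 2 donor can be joined to the exon 3 acceptor or, past exon 3, to the exon 4 acceptor, and the spliced forms therefore differ by the 22 codons in capitals.

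The next set is a pair of acceptors 3 bases apart at the start of ACSL4 exon 3 (hg38, minus strand, chrX:109683361-109683390), and a pair 12 bases apart at the start of ACADM exon 2 (plus strand, chr1:75728381-75728403). The AG that ends the intron is in capitals for each acceptor. The ACSL4 run ends with the start codon, so both of its acceptors leave the protein as it is.

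ACSL4 exon 3 acceptors: cttaccaatgccaAGaAGaaaaacgctatg
ACADM exon 2 acceptors: aataaaAGtgttctttacAGgtc

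SAM68 is known to bind A/U-rich RNA with UAAA-type motifs. The letters TAAA were searched on both strands in the 200 bases on each side of an exon. They were absent from the flanks of ACADVL exon 3 on either strand, whereas 88.0% of 38685 distinct tested cassette exons held them on at least 1 strand and 76.3% on the strand of the transcript. TAAA stood 6 times on the transcript strand beside ACSL4 exon 2, 7 times beside ACADM exon 2, 9 times beside ACSL3 exon 2 and 3 times beside HADHA exon 12. The flanks of ACAA1 exon 9 held none. TTAA, which reads the same on both strands, was found beside 76.5% of the exons and was likewise absent beside ACADVL exon 3 and ACAA1 exon 9. A match or its absence describes these letters only.

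Among the synthetases, ACSL4 had 19 tested events, and 3 of them (15.8%, against 8.42% of all events) had an unadjusted p under 0.05, each higher in SAM68. A pair of these rest on the same junction reads, 0, 13 and 14 in control and 0 in each SAM68 library, and are not separate observations. ACSL4, which prefers arachidonic and other polyunsaturated fatty acids, has a 53-nt exon 2 (chrX:109696144-109696196) ahead of the start codon. Its exon 3 can begin at either acceptor of the pair shown above, and the files list exon 2 separately for each.

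In the event that ends at the downstream acceptor, the exon 2 PSI was 100%, 81.7% and 80.3% in the control libraries and 100% in all 3 SAM68 libraries. The skipping junction, exon 1 to that acceptor, had 0, 13 and 14 reads in control and 0 in each SAM68 library. The groups overlapped at 100%, because the first control library also had no skipping read. The difference was 12.7 points (87.3% ± 11.0 in control, 100% ± 0 in SAM68, SD, n = 3 each). The adjusted p in the quasi-binomial test was 0.104, and over the alternatives tried it ran from 0.00450 with 1 dispersion per type to 0.896 with limma on the logit.

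In the event that ends at the upstream acceptor, the exon 2 PSI was 84.6%, 91.9% and 100% in control and 96.6%, 83.9% and 90.1% in SAM68. Its skipping reads were 15, 11 and 0 against 3, 17 and 11. Here the groups overlapped throughout and the difference had the opposite sign, -1.96 points.

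When reads to both acceptors were summed, a step chosen after seeing the data, exon 2 PSI was 86.4%, 86.0% and 90.8% in control and 97.3%, 87.0% and 91.9% in SAM68. The summed difference was 4.31 points, with skipping reads of 15, 24 and 14 against 3, 17 and 11, and the groups overlapped (two-sided exact permutation p = 0.2, where 3 libraries against 3 cannot go below 0.1). The size of the exon 2 difference therefore fell from 12.7 to 4.31 points once the acceptors were not kept apart.

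**Figure D2:**
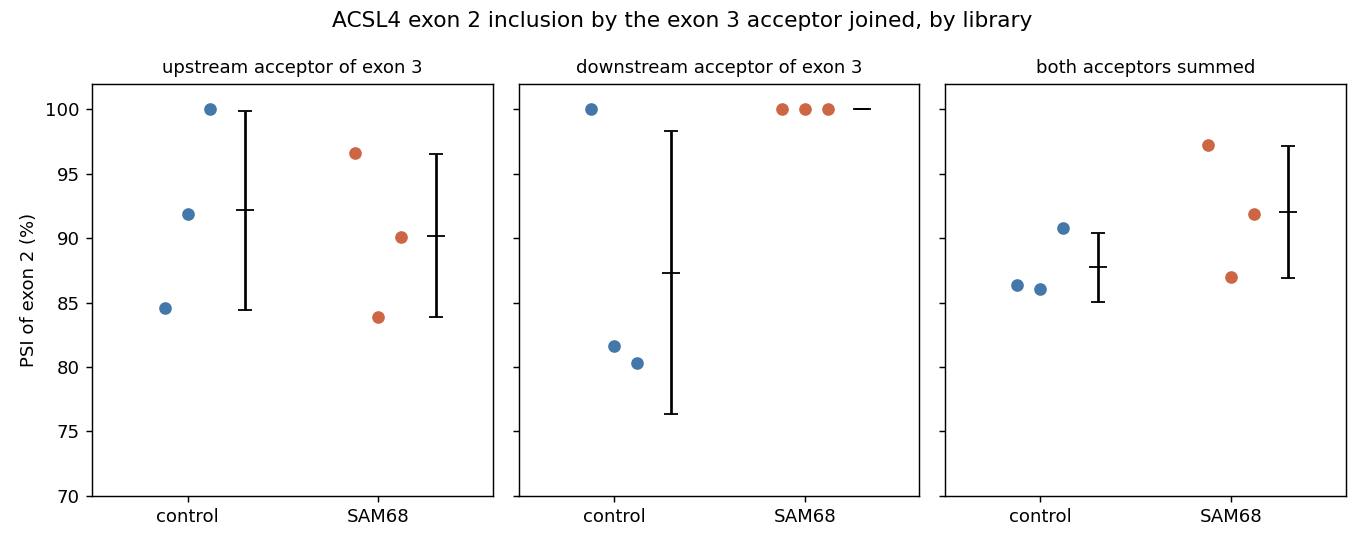
PSI of ACSL4 exon 2 (%, axis from 70) by library for the upstream acceptor of exon 3, the downstream acceptor and both summed; points are libraries, bars the mean with SD of 3. The SAM68 libraries are all at 100% for the downstream acceptor alone, and the groups overlap in each panel.

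The choice between the acceptors was listed separately by the exon they were joined to, and no test compared these listings. From exon 1, the reads for the upstream acceptor were 15, 11 and 0 in control and 3, 17 and 11 in SAM68, and those for the downstream acceptor were the 0, 13 and 14 and the zeros given above. The share of the upstream acceptor was thus 100%, 45.5% and 0% in control, the full range, and 100% in each SAM68 library (difference 51.5 points, mean of 14 reads, adjusted p = 0.444). It was 27.3 points without the third control library and 77.3 points without the first. From exon 2, with 105 reads or more in every library, the upstream acceptor had 83.3%, 79.5% and 76.5% in control and 70.2%, 70.5% and 73.9% in SAM68. These groups did not overlap, and this better covered difference was lower in SAM68, -8.23 points (adjusted p = 0.670, exact permutation p = 0.1).

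ACSL4 exons 2 and 3 were also listed as mutually exclusive, though the canonical transcript contains both. The share of exon 2 reads, 20.4%, 27.8% and 30% in control and 37.4%, 36.8% and 35.9% in SAM68 for the downstream acceptor, did not overlap (difference 10.7 points, adjusted p = 0.504). For the upstream acceptor the difference was 8.29 points (adjusted p = 0.663), also without overlap, and it was 4.51 points without the first control library. Both events use the same exon 2 reads. The other ACSL4 cassette events had differences between -3.74 and 3.79 points.

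ACSL3, a synthetase of the endoplasmic reticulum and lipid droplets, had 7 tested events, and its variable exons 2 (59 nt, chr2:222887830-222887888) and 3 (107 nt, chr2:222900674-222900780) hold no coding base. Exon 2 PSI against the exon 1 to exon 4 junction was 95.6%, 100% and 89.3% in control and 90.4%, 92.7% and 79.1% in SAM68, a difference of -7.53 points (unadjusted p = 0.0250, adjusted p = 0.542). The groups overlapped, and the difference was -3.38 points without the third SAM68 library (unadjusted p = 0.519) and -5.00 points without the second control library. The same junction, with 7, 0 and 17 reads in control and 12, 10 and 31 in SAM68, served as the skipping form of exon 3, whose PSI was 80.1%, 100% and 61.4% against 72.3%, 76.5% and 48.0% (-14.9 points, adjusted p = 0.565). Both exons were lowest in the third SAM68 library. Without that library the exon 3 difference was -6.06 points, without the second control library it was -5.09 points, and without the third control library it was -24.4 points. Between exon 2 and exon 4, a second listed event for exon 3 with a mean of 196.7 reads against 66.7, its PSI was 30.6%, 46.1% and 48.0% in control and 38.1%, 42.1% and 48.2% in SAM68. There the groups overlapped and the difference had the opposite sign, 1.21 points (adjusted p = 0.803). Exon 2 in its other listed event, between exon 1 and exon 3, differed by -0.63 points (adjusted p = 0.975). The pairing of exon 2 against exon 3 differed by -3.24 points from a control mean of 82.7% ± 2.52 (SD, n = 3).

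ACSL1, the main synthetase of liver, fat and heart, had 5 tested events with minor forms under 5%. Its largest difference at 20 reads or more was in exon 2 (chr4:184803320-184803546), which was skipped by 0, 1 and 2 reads in control and by none in SAM68 (2.74 points, adjusted p = 0.565). Without the third control library it was 1.20 points. No ACSL1 event reached an unadjusted p under 0.05.

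CPT1A had 3 tested events, each an in-frame coding exon at 100% PSI in every control library. Exon 5 (chr11:68804000-68804101) was skipped by 2 reads in the third SAM68 library and by none elsewhere, which gave -1.04 points (adjusted p = 0.565). The CPT1A differences ranged from -1.04 to -0.37 points, and the whole of the exon 5 value came from that library.

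ACADVL, the dehydrogenase for very long chains, carried 26 tested events, the most of the 10 genes. An unadjusted p under 0.05 was reached by 6 of them (23.1%, against 8.42% of all events), of which 5 were lower in SAM68 and 1 higher, and 5 did not overlap (19.2%, against 6.10%). Some of these events share reads. The gene lies at chr17:7217125-7225266 and its canonical transcript has 20 exons.

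The lowest adjusted p of the 10 genes belonged to the stretch from intron 2 to intron 3 of ACADVL (406 nt, chr17:7220198-7220603), in which reads that ran into the unspliced span were set against the junction from exon 2 directly to exon 4. Reads into the span were 20, 25 and 14 in control and 8, 9 and 8 in SAM68. Such reads lie at the ends of the span, so a read need not come from RNA with both introns unspliced. Reads over the exon 2 to exon 4 junction were 18, 24 and 16 in control and 48, 35 and 23 in SAM68. The span reads were lower in every SAM68 library than in any control library, and the junction reads overlapped by 1 library, the third of SAM68 lying under the second of control.

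The PSI of the span was 35.7%, 34.2% and 30.4% in control and 7.69%, 11.4% and 14.8% in SAM68. It was 33.5% ± 2.73 in control and 11.3% ± 3.56 in SAM68 (SD, n = 3 each), a difference of -22.2 points. The unadjusted p was 0.000140 and the adjusted p was 0.0727, and leaving out any 1 library kept the difference between -23.9 and -20.4 points. Over the alternatives tried the adjusted p ran from 0.0415 with 1 dispersion per type to 0.793 with unmoderated dispersion. The fully spliced form through exon 3 is no part of this ratio, so these percentages are not shares of ACADVL transcripts.

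The same exon 2 to exon 4 junction was the skipping form of ACADVL exon 3, whose sequence is printed above. Exon 3 PSI was 96.3%, 95.8% and 97.4% in control and 92.5%, 94.0% and 95.6% in SAM68. The groups did not overlap, though the gap was small, and the exon stayed above 92% in every library. The difference was -2.44 points (96.5% ± 0.808 and 94.0% ± 1.55, SD, n = 3 each). The adjusted p was 0.461, and the range without any 1 library was -3.23 to -1.68 points.

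An acceptor event with the same 3 control and 3 SAM68 counts of skipping reads compared exon 3 with exon 4 as the next acceptor and gave -3.59 points (94.7% ± 1.29 and 91.1% ± 2.30, SD, n = 3 each, no overlap). These 3 ACADVL events share a junction and are not separate observations.

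**Figure D3:**
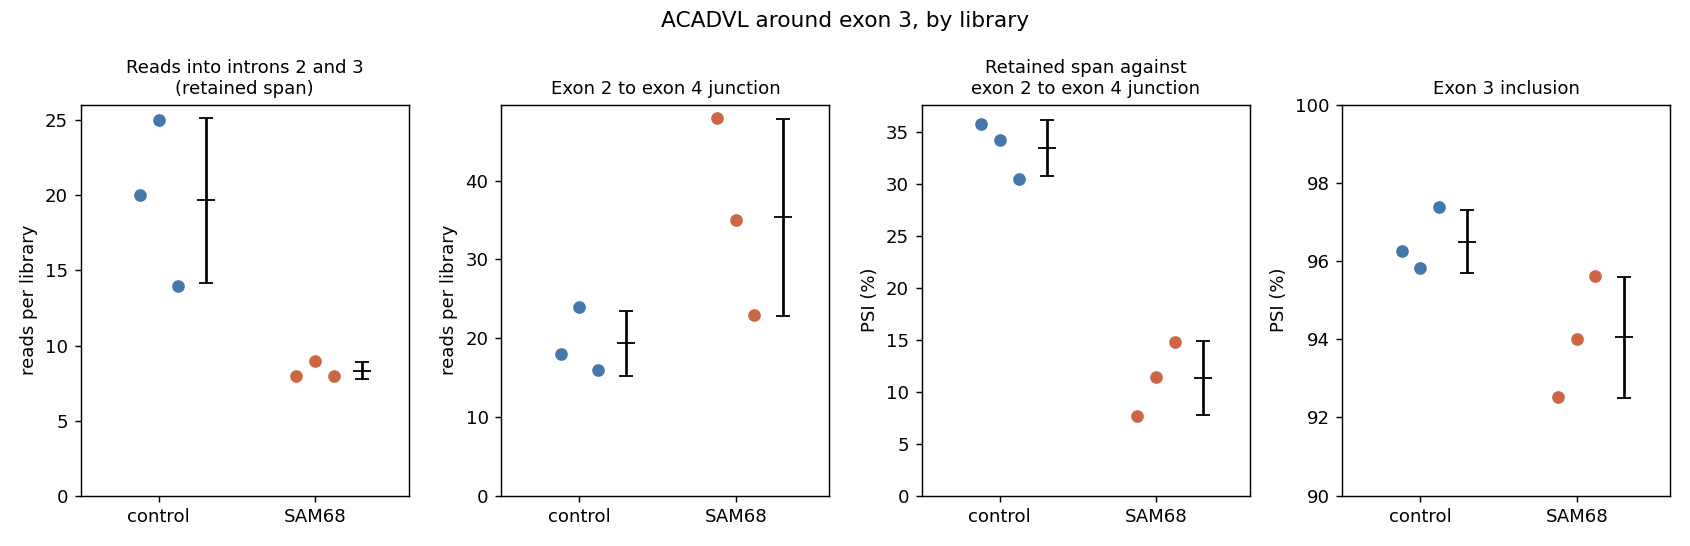
ACADVL around exon 3 by library, from left to right the reads into the unspliced span of introns 2 and 3, the reads of the exon 2 to exon 4 junction, the PSI of the span and the PSI of exon 3 (%, last axis from 90 to 100); points are libraries, bars the mean with SD of 3. Span reads are 14 to 25 in control and 8 to 9 in SAM68, and exon 3 PSI is 95.8% to 97.4% against 92.5% to 95.6%.

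Retention was listed for 6 introns with canonical ends in ACADVL. Intron 2 (266 nt) was retained at 0.913%, 1.34% and 0.441% in control and at 0.327%, 0.214% and 0.153% in SAM68, from 11, 19 and 7 against 5, 3 and 2 retained reads. These groups did not overlap (-0.67 points, unadjusted p = 0.00336, adjusted p = 0.483). Intron 5 (93 nt) had 2.00%, 3.40% and 2.55% against 1.94%, 1.54% and 0.542%, again without overlap (-1.31 points, adjusted p = 0.594).

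Intron 10 (267 nt) was at 1.33%, 4.16% and 1.502% in control and 1.26%, 1.497% and 0.576% in SAM68 (-1.22 points, unadjusted p = 0.0310). Its second control library, with 31 retained reads against 4 to 10 elsewhere, stood apart, and without it the difference was -0.31 points. Introns 3, 13 and 16 differed by -0.57, -0.81 and -0.02 points, with overlap in each.

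In all, 7 of the 8 ACADVL retention events were lower in SAM68, with a median of -0.74 points, against 55.8% lower and a median of -0.05 points over the 2591 retention events tested. Over the 10 genes, 9 of 12 were lower. A lower PSI with an unadjusted p under 0.05 was found for 3 of the 12, all in ACADVL, against 5.71% of all retention events. Of these 3, the intron 2 event and the intron 2 to intron 3 span share the exon 2 boundary and so share retained reads. The span ends at the same exon 4 boundary as the intron 3 event. That event had 27, 34 and 16 retained reads in control and 19, 23 and 25 in SAM68, with overlap. The intron 10 event rests on the second control library, as given above. The events that share a boundary are thus not separate observations, while the intron 10 event lies elsewhere in the gene. The exception, the alternative end of intron 16, had 18.6% ± 5.10 in control and 20.7% ± 4.46 in SAM68 (SD, n = 3 each). The amount of unspliced RNA carried into each library was not measured, and its part in these values was not tested.

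**Figure D4:**
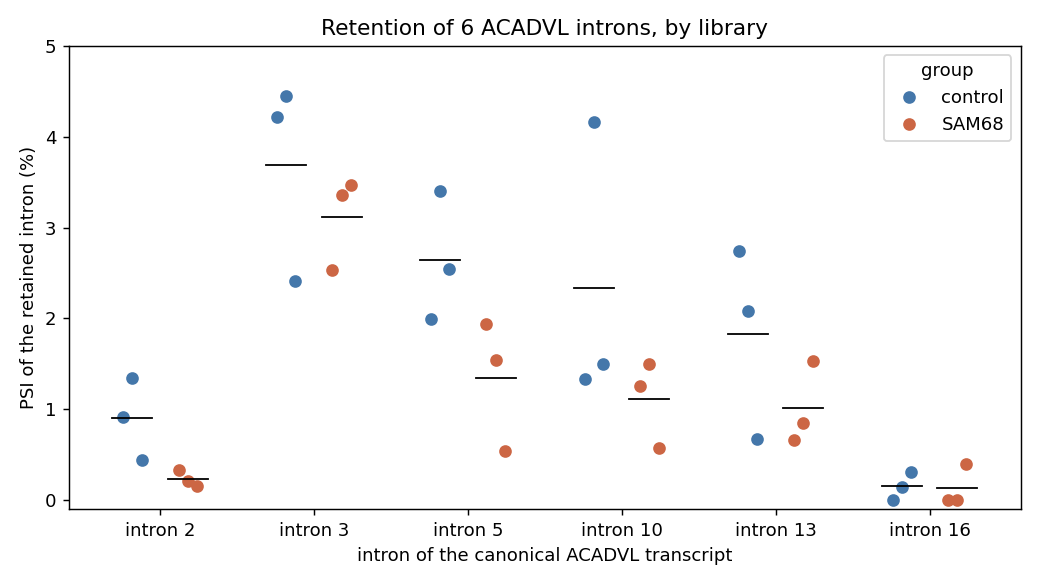
PSI (%) of 6 retained ACADVL introns by library; points are libraries and lines the means of 3. The SAM68 mean is lower at each intron, and the groups are apart at introns 2 and 5.

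Exons 11 (105 nt) and 12 (87 nt) of ACADVL, both in the canonical transcript, were listed as a mutually exclusive pair. The share of exon 11 was 45.0%, 46.0% and 40.5% in control and 49.0%, 44.7% and 58.9% in SAM68 (7.04 points, unadjusted p = 0.0312, adjusted p = 0.508). The groups overlapped and the third SAM68 library was highest, and without it the difference was 3.00 points. As cassette exons, exons 11 and 12 were near 100% PSI, with differences of 0.33 and 0.00 points. An acceptor event that set the stretch of intron 18 with exon 19 against an exon 17 to exon 19 junction gave -13.05 points on a mean of 12.7 reads, with 6 of its 8 skipping reads in the third SAM68 library.

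ACADM, the medium-chain dehydrogenase, had 12 tested events and none with an unadjusted p under 0.05. Its exon 2 (88 nt, not a multiple of 3, chr1:75728401-75728488) was skipped in both groups. With the canonical acceptor, exon 2 PSI was 90.4%, 93.5% and 88.9% in control and 89.0%, 90.4% and 86.1% in SAM68 (-2.45 points, adjusted p = 0.565). With the acceptor 12 bases upstream, shown above, it was 84.4% ± 4.19 and 80.7% ± 4.002 (SD, n = 3 each, -3.75 points). Both events use the same skipping junction, with 16, 15 and 21 reads in control and 18, 17 and 27 in SAM68. The groups overlapped, with the third SAM68 library lowest. Without that library the differences were -1.25 points for the canonical and -1.73 points for the upstream acceptor, and without the second control library they were -1.17 and -1.80 points. With other libraries left out, the upstream acceptor event reached -5.96 points.

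HADHA, which carries the hydratase and long-chain hydroxyacyl-CoA dehydrogenase activities of the trifunctional protein, had 9 tested events, each with a minor form under 2%. Exon 12 (135 nt, in frame, chr2:26204062-26204196) was skipped by no read in control, among 746, 787 and 755 inclusion reads. In SAM68 it was skipped by 7, 2 and 1 reads among 837, 632 and 598. PSI was thus 100% in each control library and 98.4%, 99.4% and 99.7% in SAM68, without overlap (-0.87 points, unadjusted p = 0.00404, adjusted p = 0.386). Without the first SAM68 library, which held 7 of the 10 skipping reads, the difference was -0.48 points.

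An exon between HADHA exons 10 and 11 that is not in the canonical transcript (270 nt, chr2:26210545-26210814) was used at 0.563%, 1.63% and 2.87% in control and 0.447%, 0.935% and 0.828% in SAM68 (-0.95 points, adjusted p = 0.565). A shorter form of it (120 nt) differed by -0.96 points. Both overlapped between groups, with the third control library highest, and without that library the differences were -0.36 and -0.34 points. Without the first control library they were -1.52 and -1.67 points.

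HADHB, the thiolase subunit of the same complex, had 4 tested events. Exons 4 (100 nt) and 5 (45 nt), which lie in the same canonical transcript, were paired as mutually exclusive. The share of exon 4 was 49.2%, 63.3% and 53.7% in control and 65.4%, 58.0% and 69.3% in SAM68 (8.83 points, unadjusted p = 0.0404, adjusted p = 0.556), with overlap. It was 5.73 points without the first control library and 12.8 points without the second. As cassette exons, exon 4 and exon 5 had control means of 99.9% and 98.6% and differed by 0.00 and -0.06 points. The difference in the pair thus had no counterpart in skipping of either exon.

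ACAA1, the peroxisomal thiolase, had 15 tested events and the most with a minor form of at least 10%, 6 of them. Exon 9 (180 nt, in frame, chr3:38126162-38126341) was skipped by 12, 7 and 26 reads in control and 25, 15 and 10 in SAM68. Its PSI was 85.6%, 91.9% and 74.4% in control and 77.2%, 79.5% and 85.7% in SAM68. The groups overlapped (-3.18 points, adjusted p = 0.650), and the difference was 0.77 points without the second control library and -7.97 points without the third.

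The share of ACAA1 exon 6 (99 nt) against exon 7 (81 nt), both canonical, was 34.6%, 33.6% and 39.8% in control and 50.5%, 43.8% and 47.4% in SAM68. These did not overlap (11.2 points, unadjusted p = 0.0529, adjusted p = 0.585). As cassette exons, exons 6 and 7 had PSI means of 97.6% or more in control and differences between -0.01 and 1.52 points.

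ACAA2, the mitochondrial thiolase that acts on medium chains, had 3 tested events. The share of exon 2 (167 nt) against exon 3 (129 nt), both canonical, was 31.5%, 41.6% and 39.4% in control and 45.0%, 35.4% and 40.1% in SAM68 (2.67 points, adjusted p = 0.835). The groups overlapped, and the difference ran from -0.32 points without the first control library to 5.05 points without the second SAM68 library.

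Of the 14 pairs listed as mutually exclusive, 12 joined exons that the canonical transcript holds together. Such a pair compares reads at 2 exons of the same RNA, so its PSI need not measure a choice between them.

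Junction reads also gave a stand-in for the level of each gene, as the reads of its best covered event scaled to the sum of such reads in the library (rpm). None of the 10 genes was called (adjusted p under 0.05 and a log2 fold change of at least 1), against 5 of 10146 genes (0.0493%). None had an adjusted p under 0.05 in limma, against 0.296% of genes lower and 0.118% higher. The number at an unadjusted p under 0.05 was 1, ACSL4, against 12.0% of all genes. The rpm did not overlap for ACSL1 and ACSL4, 2 of the 10, against 16.9% of all genes.

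ACSL4 had 38.8, 46.9 and 42.2 rpm in control and 29.2, 33.6 and 37.6 rpm in SAM68. Each SAM68 library was below each control library, by a log2 fold change of -0.35 ± 0.129 (SE, limma, unadjusted p = 0.0120, adjusted p = 0.247). The ACSL4 value was -0.26 with reads summed over the gene's events and -0.29 centred on the median gene. It was -0.25 without the first SAM68 library and -0.43 without the third. The reads are those of exon 3 begun at its upstream acceptor, so the choice of acceptor may enter this level, which was not tested. ACSL1 had 15.2, 13.05 and 11.2 rpm against 11.0, 8.62 and 11.2 rpm, a log2 fold change of -0.34 ± 0.216 (SE, adjusted p = 0.570), where the closest libraries of the groups were almost equal. It was -0.22 without the second SAM68 library and -0.19 with reads summed over the gene's events. CPT1A had 33.4, 27.2 and 28.4 rpm against 28.6, 19.1 and 27.9 rpm (log2 fold change -0.25, adjusted p = 0.563), with overlap and with the second SAM68 library lowest. Without that library the CPT1A log2 fold change was -0.07.

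The other genes moved less. ACADVL had 152 ± 14.7 rpm in control and 154 ± 1.51 in SAM68, and HADHA had 149.6 ± 11.9 and 155 ± 4.42 (SD, n = 3 each). The log2 fold changes of ACSL3, ACADM, HADHB, ACAA1 and ACAA2 lay between -0.08 and 0. In all, 8 of the 10 were below 0 with a median of -0.05, against 57% below 0 and a median of -0.03 over all genes, and with each library centred on its median gene 4 were below 0.

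**Figure D5:**
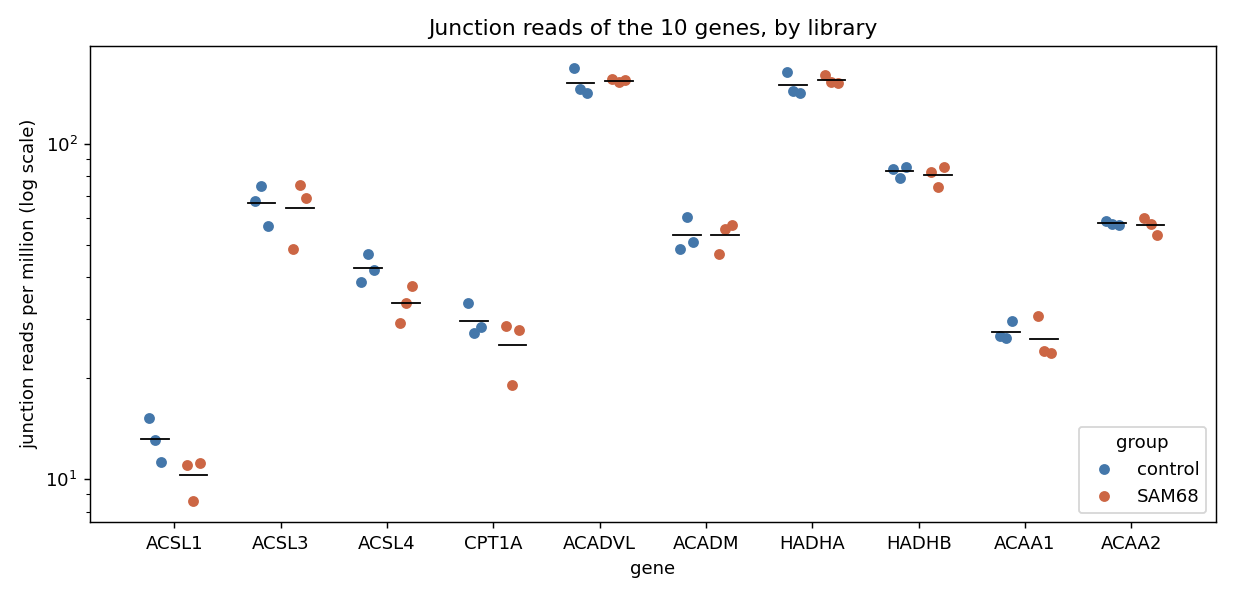
Junction reads in rpm (log scale) of the 10 genes by library; points are libraries and lines the means of 3. The effective lengths of the events differ between genes, so levels compare only within a gene, where ACSL4 and ACSL1 are the 2 without overlap.

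A list of 62 other genes of fatty acid uptake, activation, carnitine transport, mitochondrial and peroxisomal oxidation and their regulators was set beside the 10. Junction reads were tested for 51 of them, and 0 were called higher and 0 lower, with 26 log2 fold changes above 0, 25 below and a median of 0.00. The largest were in CPT1B, the muscle form of the carnitine enzyme (log2 fold change -1.09, 3.59 ± 0.357 rpm in control and 1.63 ± 1.06 in SAM68, SD, n = 3 each), and ACAD10, an acyl-CoA dehydrogenase family member (0.75, from 8.28 ± 1.51 to 14.3 ± 2.74 rpm). Their adjusted p-values in limma were 0.332 and 0.140. The CPT1B value rests on a mean of 15.3 reads and the ACAD10 value on 66.3. SLC27A3, SLC22A5 (the plasma membrane carnitine transporter) and PCCA (a propionyl-CoA carboxylase subunit) followed at -0.64, 0.51 and -0.51, on means of 13.2, 25.2 and 27.5 reads. Of the 362 splicing events tested in these genes none was called, and 32 (8.84%) had an unadjusted p under 0.05. The median absolute difference of those events was 0.918 points.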

How the data were processed

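Per the labels and the study's methods, the authors trimmed reads with fastp 0.20.0, aligned them to GRCh38 with HISAT2 2.1.0 and ran rMATS, whose tables were deposited as lists of inclusion and skipping junction counts, effective lengths and inclusion fractions (other columns hold the authors' p-values and differences, which were not used). Base calling used CASAVA 1.4. The lists carry no library names. The first list was taken as control because the study's own figures title the comparison in that order, and the level of KHDRBS1 was not used for this. Among alternative acceptors, 275 events had lists whose commas no longer separated libraries, of which 113 could not be read with certainty and were left out, none from the 10 genes.

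All 66394 events averaging 10 reads or more were fitted with a quasi-binomial model on the counts, its dispersion moderated within each event type by limma 3.58.1 (R 4.3.3) and not taken below 1, with Benjamini-Hochberg adjustment within type. Gene levels were log2(rpm + 0.5) tested with limma trend over 10146 genes, so fold changes understate those of low genes. Both tests were tested on simulated data. Replicates were compared by chi-square over genes (3.14 to 4.53 per degree of freedom) and none was a duplicate. Junction reads are not unique molecules, and depth limits events with few skipping reads. Annotation is GENCODE 44 and sequences are from hg38 (pysam 0.24.0). Ends of ACSL4 and other minor exons are as the files give them.

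The genes, the pathway list and the named events (every event with an unadjusted p under 0.05, the largest difference of each gene at 20 reads or more, and the best covered event with a minor form of at least 10%) were chosen with earlier results of these data known. The ACSL4 upstream acceptor events, the further ACSL3 exon 2 and exon 3 events, the ACADVL introns, the ACADVL event of 12.7 reads and the cassette forms of paired exons were named after their values were seen. Alternatives covered the read minimum, the spread, the adjustment, effective lengths, the pseudocount, scaling and each library left out.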

Additional observations from a re-analysis of the deposited data

How the results depend on the processing

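No event of the 10 genes was called under the 6 other settings chosen at the outset or with any of the 6 libraries left out. One of these settings, PSI without effective lengths, leaves the test on the counts unchanged, so no call of these events could arise there. With 1 dispersion shared by each event type, added after the data were seen, 3 were called. Over all events the calls were 17 as reported, 16 at a mean of 20 reads, 18 with adjustment over all types, 17 without effective lengths, 3 with no read minimum, 3 with limma on the logit, 2 without moderation, 125 with 1 dispersion per type, and 2 to 3 with a library left out. In those 6 fits the prior degrees of freedom were between 0.718 and 3.61, against 11.6 to 24.8 with all libraries, so they say little about the stability of a call. Taken from reads without division by effective length, some differences moved by over 1.5 times with no change of sign. They became -1.32 and -2.33 points for retention of ACADVL introns 2 and 10, -1.94 for the ACADVL exon 3 acceptor event, -0.44 for HADHA exon 12, -1.84 and -1.77 for the longer and shorter HADHA exon between exons 10 and 11, 1.40 for ACSL1 exon 2, -0.60 for CPT1A exon 5, -1.59 and -2.49 for ACADM exon 2 at the canonical and upstream acceptors, and -1.79 for ACAA1 exon 9. No paired analysis was possible because the lists carry no replicate numbers.

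No gene was called under any alternative. Signs turned for small values that were not called. Centred on the median gene, log2 fold changes were 0.00153 for ACSL3, 0.0601 for ACADM, 0.0206 for HADHB and 0.0409 for ACAA2. Summed over events they were -0.0292 for ACADVL and 0.0742 for ACAA1. With a library left out they ran from -0.188 to 0.127 for ACSL3, -0.0230 to 0.104 for ACADVL, -0.0665 to 0.0914 for ACADM, -0.0842 to 0.0163 for HADHB and -0.0573 to 0.0234 for ACAA2. ACAA2 exon 2 against 3 ran from -0.32 to 5.05 points and ACAA1 exon 9 from -7.97 to 0.77 points.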
